A study of Mus musculus with 20 samples.

Results

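Foxk1 and Foxk2 were each knocked down in differentiated 3T3-L1 adipocytes, and the genes described here are those whose response to losing Foxk1 differed from their response to losing Foxk2. 3T3-L1 is a mouse fibroblast-like preadipocyte line, derived from Swiss mice, that turns into fat-laden adipocytes in culture. Of the 20 RNA-sequencing libraries of the study, the 10 knockdown libraries entered the comparison, and the other 10, with Foxk1 or Foxk2 overexpressed or an empty vector control, did not, though the Foxk2 overexpression libraries and their controls are described at the end. The knockdown libraries were 3 with Foxk1 knockdown (shRNA) and 3 with their own scrambled shRNA control, and 2 with Foxk2 knockdown and 2 with their own scrambled control. Every culture had been differentiated with 5 µg/ml insulin, 10 µM troglitazone, 0.5 mM isobutyl methylxanthine and 1 µM dexamethasone, kept in insulin alone from day 4 and returned to growth medium from day 6. The labels number the replicates but do not say whether they were separate cultures, so p-values measure only the spread between these libraries, which may be technical.

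Foxk1 and Foxk2 are closely related forkhead transcription factors. Both bind DNA through a winged-helix domain, carry a forkhead-associated domain that binds phosphorylated partners, recruit the Sin3 corepressor and move between cytoplasm and nucleus with insulin and mTOR signalling. They are known for promoting aerobic glycolysis and restraining autophagy and atrophy genes, and are usually treated as overlapping in function. An effect is used here as the mean log2(RPKM + 0.5) of the knockdown libraries minus that of their own controls, where RPKM is the read count scaled by gene length and by library size. The difference is the Foxk1 effect minus the Foxk2 effect, tested with limma across all genes with Benjamini-Hochberg adjustment at 0.05. Because the controls of each factor cancel within their own set, the difference does not compare control levels. The pseudocount of 0.5 understates changes of low genes.

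The sets of libraries stood apart before any knockdown was considered. The first principal component, 79.8% of the variance, separated the Foxk1 set from the Foxk2 set, and the second, 11.4%, separated knockdowns from controls in both. Depth was 16739763 to 20772823 reads per library in the Foxk1 set and 31378224 to 34535866 in the Foxk2 set. Set, depth and factor cannot be told apart. Adipocyte markers were present in every library: Adipoq (adiponectin) stood at 1597 to 3152 RPKM and Fabp4 (a fatty acid carrier) at 1359 to 1670. Of the 25 adipocyte markers listed, 2 were below 0.5 RPKM in every library, Itih5 and Rbp4, the latter at 0. Lep (leptin) was at 0.238 to 1.16 RPKM. Of 13 macrophage markers 8 were below 0.5 RPKM in every library and 2, Ptprc and Tyrobp, at 0, while Cd14 was at 1.69 to 5.20 RPKM and Cd68 at 0.698 to 3.36. The 13 summed to 4.86 to 5.95 RPKM in Foxk1 controls and 7.66 to 8.61 with knockdown, and to 3.90 to 4.39 in Foxk2 controls and 7.27 to 8.53 with knockdown, and their part in the results was not tested. All 10 endothelial markers were below 0.5 RPKM. The difference also moved with base composition. Across 12141 genes its Spearman correlation with exonic GC content was -0.393, as a description over genes of the same libraries, and its median went from 0.11 in the lowest of 10 equal bins of GC to -0.21 in the highest bin. The part of base composition in the results was not tested, and counts after removing a GC and length trend from each effect are given beside the main ones.

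**Figure D1:**
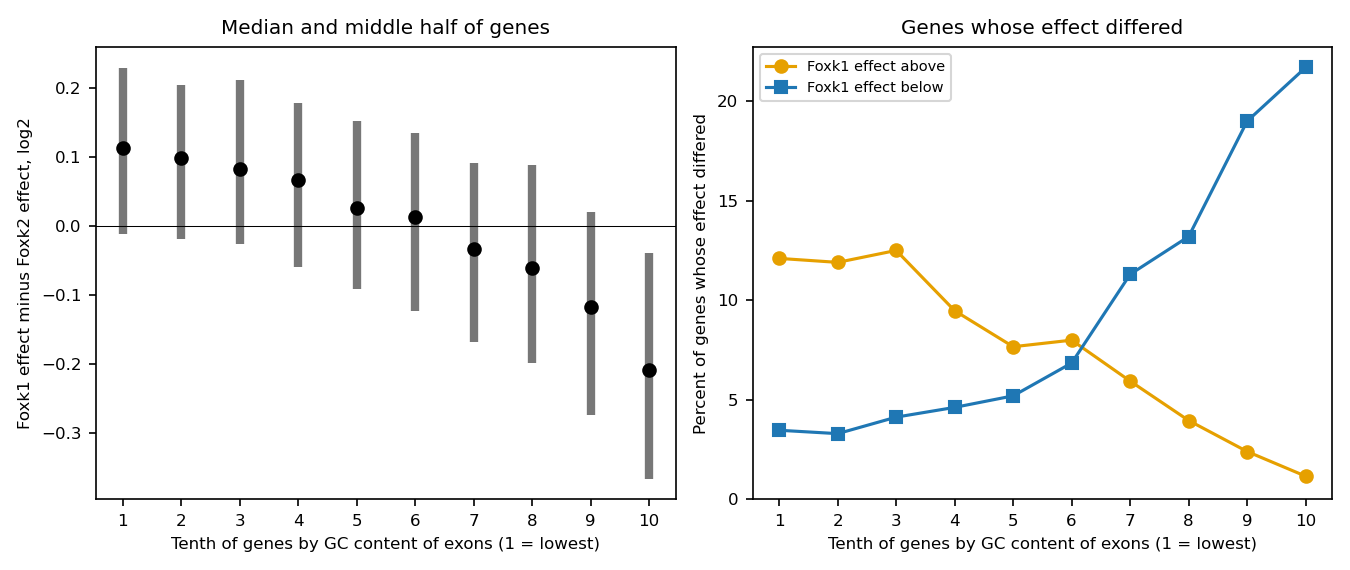
Difference between the knockdown effects (Foxk1 minus Foxk2, log2 scale) in 10 equal bins of genes ordered by exonic GC content, with the median and quartiles, and the percentage of each bin called above or below. The median goes from 0.11 in the lowest bin to -0.21 in the highest, and the share called below from 3.46% to 21.7%.

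The knocked-down genes came first. Foxk1 (ENSMUSG00000056493.9, mm10 chr5:142401497-142462011) was at 8.80, 8.18 and 7.99 RPKM in its controls and at 3.36, 2.95 and 3.46 in its knockdown libraries. In the Foxk2 set it was at 10.7 and 9.79 RPKM in controls and at 12.9 and 12.6 with Foxk2 knockdown. All groups were separate, low with its own knockdown and higher with loss of Foxk2. The effects were -1.23 ± 0.061 (SE; limma adjusted p = 6.84e-07) and 0.30 ± 0.075 (adjusted p = 0.0104), and the difference was -1.53 ± 0.097 (adjusted p = 8.02e-05). The rise with Foxk2 knockdown was 0.14 (adjusted p = 0.0944) once the GC and length trend was removed, and did not pass without Foxk2KD replicate 1 or Foxk2_ControlKD replicate 2.

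Foxk2 (ENSMUSG00000039275.9, chr11:121259990-121309896) was at 13.1 and 12.7 RPKM in its controls and at 3.26 and 3.29 with its knockdown. In the Foxk1 set it was at 10.9, 10.8 and 11.3 RPKM in controls and at 8.90, 9.58 and 10.2 with Foxk1 knockdown. Foxk2 was therefore low in its own knockdown and slightly low in that of Foxk1, with no overlap between knockdown and control in either set. The effects were -1.83 ± 0.059 (adjusted p = 9.69e-08) and -0.19 ± 0.049 (adjusted p = 0.0112), and the difference was 1.64 ± 0.077 (adjusted p = 2.18e-05). The knockdowns were thus of unequal depth, by 1.23 and 1.83 on the log2 scale, and how far this sets the size of other differences was not tested.

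Among 12166 genes tested, the effect differed for 2039, or 16.8%: 913 genes (7.5%) had the Foxk1 effect above the Foxk2 effect and 1126 (9.26%) below it. Most differences were modest, with a median absolute size of 0.38 among the genes called, and 76 genes differed by at least 1 on the log2 scale, 19 above and 57 below. Across all genes the median difference was 0.01 and 70.9% of genes had the same sign of effect in both sets. The count leaned on the small Foxk2 set: it was 931 without Foxk2_ControlKD replicate 2, 1154 without Foxk2_ControlKD replicate 1 and 1152 without Foxk2KD replicate 1. With the GC and length trend removed it was 1906, of which 1445 were among the 2039.

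Taken alone, Foxk1 knockdown raised 23.5% and lowered 18.6% of the genes tested, and Foxk2 knockdown raised 22.7% and lowered 20.2%. By the direction of the single effects, the 2039 genes fell into 5 kinds. For 208 genes (1.71% of those tested) both effects passed and pointed opposite ways: 112 rose with Foxk1 knockdown and fell with Foxk2 knockdown, and 96 did the reverse. Another 670 (5.51%) moved the same way by different amounts. Of these, 378 rose more with Foxk2 knockdown and 62 rose more with Foxk1 knockdown, while 137 fell more with Foxk2 knockdown and 93 fell more with Foxk1 knockdown. Only the Foxk1 effect passed for 458 genes (3.76%), only the Foxk2 effect for 682 (5.61%), and neither for 21 (0.173%). Where a gene is said below to move with 1 factor only, the other effect did not pass, which does not show that it was absent. Opposite genes numbered 105 without Foxk2_ControlKD replicate 2, 117 without Foxk2_ControlKD replicate 1, 118 without Foxk2KD replicate 1 and 194 with the GC and length trend removed, of which 122 were among the 208.

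**Figure D2:**
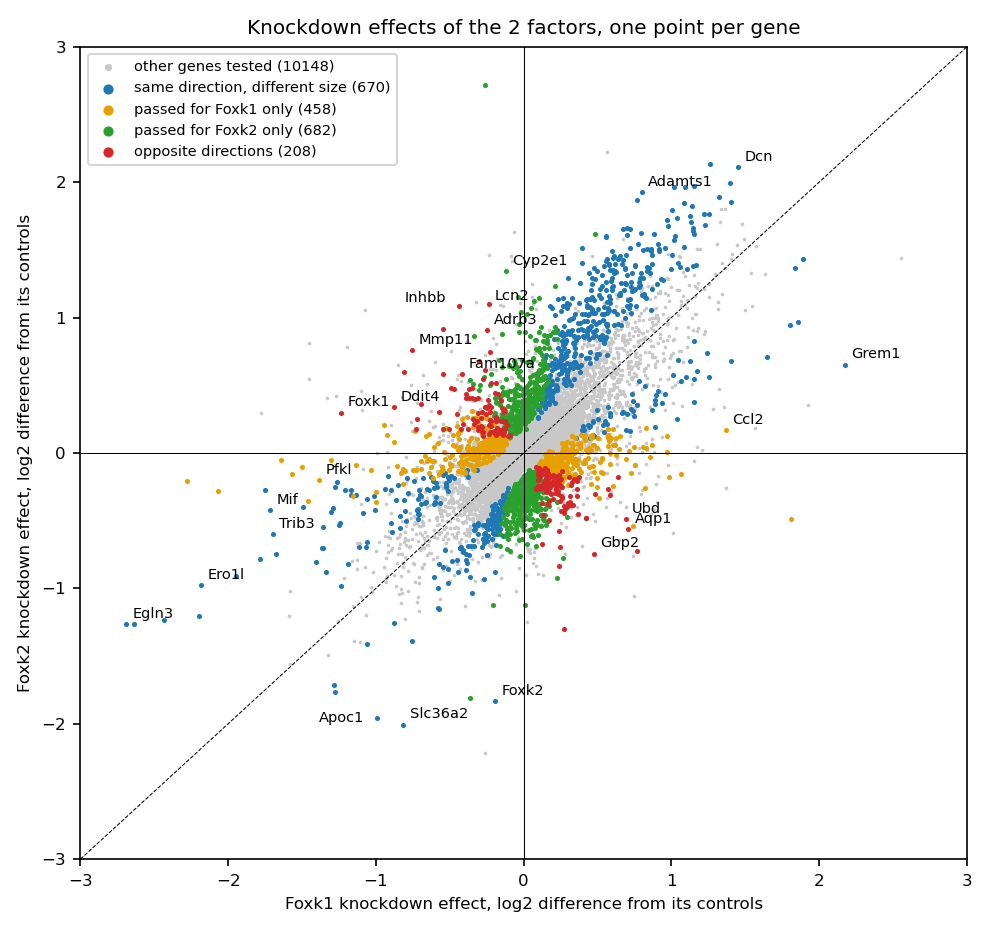
Effect of Foxk1 knockdown (x axis) against effect of Foxk2 knockdown (y axis) for each tested gene, both as log2(RPKM + 0.5) of knockdown minus own control, coloured by the kind of difference; 8 genes lie outside the axes. The 208 opposite genes occupy the upper left and lower right corners, mostly close to the origin.

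Opposite responses were mostly small. The median absolute difference of the 208 genes was 0.49, the median of the smaller of the pair of effects was 0.19, and 7 genes had both effects at 0.5 or more. In 203 of them the knockdown and control libraries did not overlap in either set. They are among the 673 of all genes tested (5.53%) whose libraries were apart and opposite. This is no separate support, because the 208 genes were chosen by effects that passed in these same libraries. Median exonic GC was 45.9% for the 112 genes higher with Foxk1 knockdown and 55.4% for the 96 genes lower with it.

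**Figure D3:**
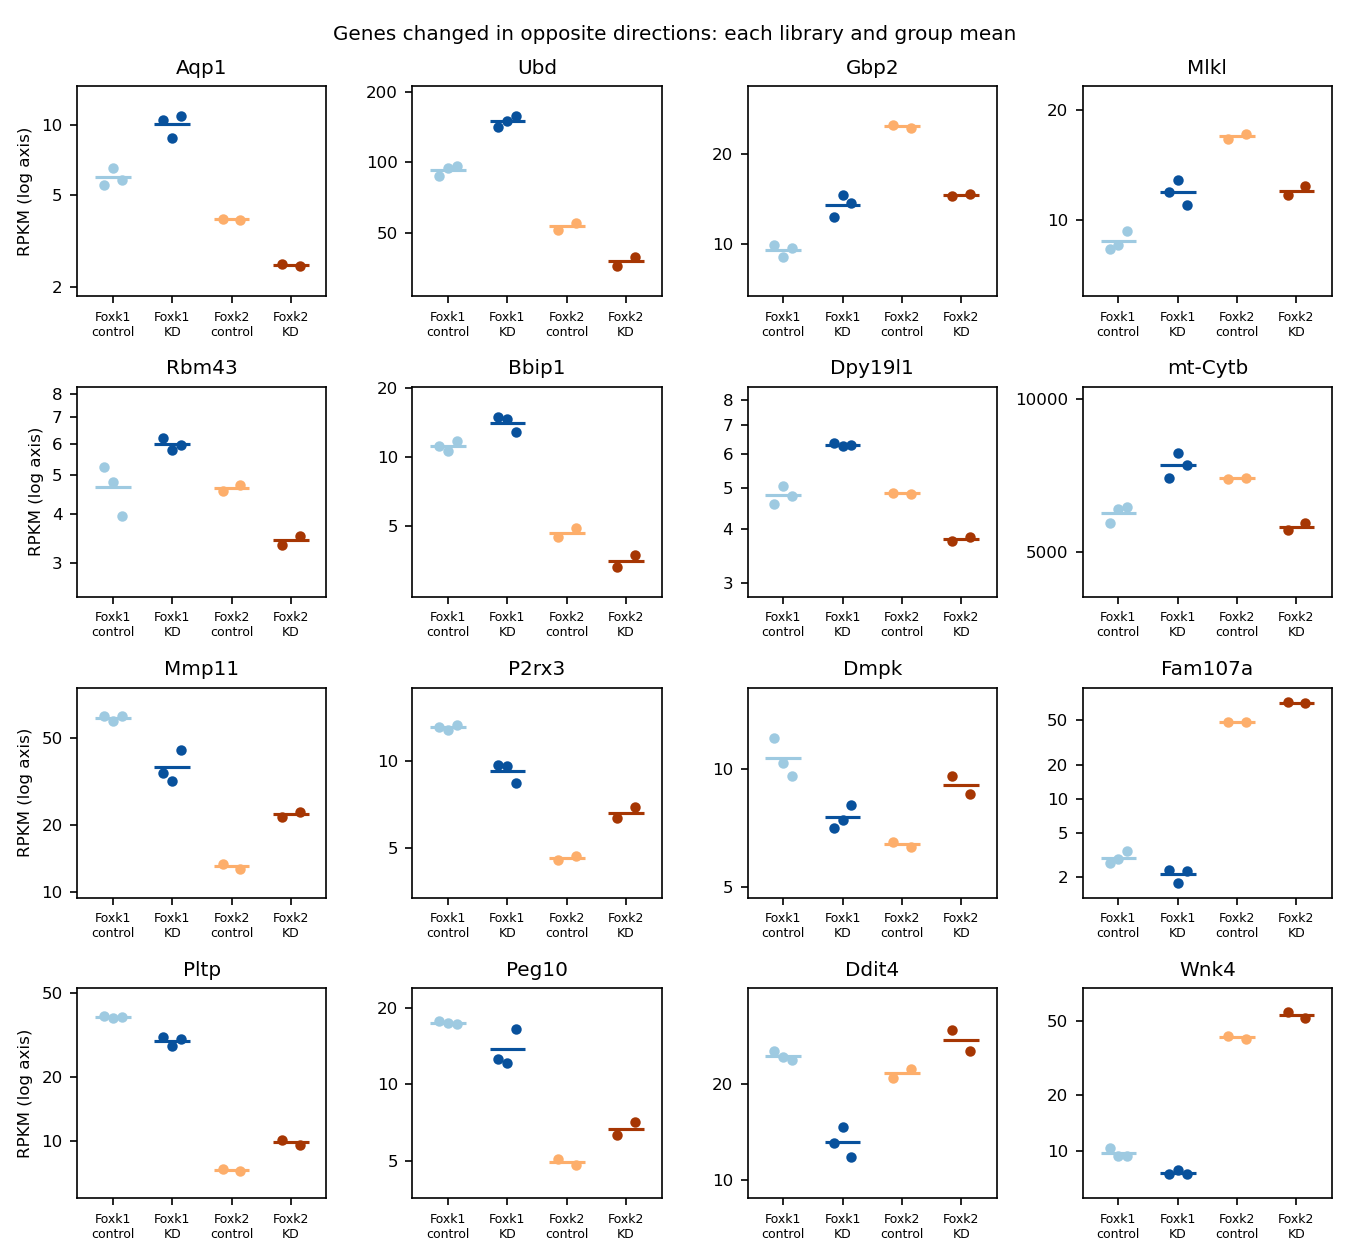
RPKM (log axis) in each of the 10 knockdown libraries for the 16 opposite genes named by rule, 8 in each direction; each point is 1 library. In the first 8 genes, from Aqp1 to mt-Cytb, the Foxk1 knockdown libraries lie above their controls and the Foxk2 knockdown libraries below theirs, and in the other 8 the order is turned round. The rule took only genes whose libraries were apart in both sets.

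Of the 8 named genes that rose with loss of Foxk1 and fell with loss of Foxk2, Aqp1 had the largest difference. It encodes aquaporin 1, a water channel. Aqp1 (ENSMUSG00000004655.5, chr6:55336432-55348555) was at 5.53, 6.52 and 5.82 RPKM in Foxk1 controls and at 10.49, 8.82 and 10.9 with Foxk1 knockdown. It was at 3.94 and 3.91 RPKM in Foxk2 controls and at 2.52 and 2.48 with Foxk2 knockdown. Libraries did not overlap in either set, but the naming rule required this of the 8 genes of each direction, so it is no separate result. The effects of 0.71 and -0.56 gave a difference of 1.27 ± 0.126 (adjusted p = 0.000386).

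Ubd, Gbp2, Irf1 and Mlkl, known as genes induced by interferon or inflammatory signals, were all opposite in this direction. Ubd (ENSMUSG00000035186.6, chr17:37193892-37196095), a ubiquitin-like protein that tags proteins for the proteasome, was at 87.1, 94.7 and 96.9 RPKM in Foxk1 controls and at 143, 151 and 158 with knockdown. In the Foxk2 set it was at 51.5 and 54.7 RPKM in controls and at 36.0 and 39.3 with knockdown, and the difference was 1.18 ± 0.088 (adjusted p = 0.000215). Gbp2 (ENSMUSG00000028270.12, chr3:142620602-142638008), an interferon-induced GTPase, was at 9.93, 9.01 and 9.70 RPKM against 12.3, 14.6 and 13.7 with Foxk1 knockdown. It was at 25.1 and 24.5 RPKM against 14.5 and 14.7 with Foxk2 knockdown, for a difference of 1.22 ± 0.0944 (adjusted p = 0.000215). In both genes every Foxk1 knockdown library was above its controls and every Foxk2 knockdown library below, which the naming rule required.

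Mlkl (ENSMUSG00000012519.14, chr8:111311797-111338177), the executioner of necroptosis, was at 8.34, 8.55 and 9.29 RPKM against 11.9, 12.9 and 10.9 with Foxk1 knockdown, and at 16.6 and 17.2 against 11.7 and 12.3 with Foxk2 knockdown. Its difference was 0.90 ± 0.0963 (adjusted p = 0.000555). Irf1, a transcription factor of the interferon response, was at 14.8, 14.9 and 14.2 RPKM against 17.2, 18.4 and 17.2, and at 18.2 and 17.0 against 14.3 and 15.2. Neither gene's knockdown libraries overlapped its controls, which the naming rule required of Mlkl only. The Irf1 difference was 0.50 ± 0.069 (adjusted p = 0.00175). The interferon response list as a whole gave less: of 20 members tested, 3 (Gbp2, Irf1 and Irf7) had the Foxk1 effect above the Foxk2 effect against 7.5% of all genes, and none was below. The list's median effects were 0.47 and 0.39, with 5 members higher and 4 lower after Foxk2 knockdown. Its median difference was 0.21, and -0.02 without Foxk2_ControlKD replicate 1.

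The other genes of this direction were Dpy19l1, Bbip1, Rbm43 and mt-Cytb. Dpy19l1 (ENSMUSG00000043067.15, chr9:24411776-24503140), a protein C-mannosyltransferase, was at 4.58, 5.05 and 4.79 RPKM against 6.37, 6.26 and 6.27 with Foxk1 knockdown, and at 4.86 and 4.84 against 3.76 and 3.85 with Foxk2 knockdown. Control levels of Dpy19l1 were alike in the sets, and its difference was 0.67 ± 0.0663 (adjusted p = 0.000375). Bbip1, a subunit of the ciliary BBSome, went from 11.2, 10.7 and 11.8 RPKM to 14.95, 14.6 and 12.8 in the Foxk1 set and from 4.50 and 4.90 to 3.34 and 3.76 in the Foxk2 set, for a difference of 0.68 ± 0.109 (adjusted p = 0.00387). Rbm43, an RNA-binding protein, had a difference of 0.73 ± 0.131 (adjusted p = 0.00658). Its fall with Foxk2 knockdown, and that of Bbip1, did not pass without Foxk2KD replicate 1 or Foxk2_ControlKD replicate 2, and that of Rbm43 not after removal of the GC and length trend.

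mt-Cytb, the cytochrome b gene of the mitochondrial genome (ENSMUSG00000064370.1, chrM:14145-15288), was at 5691, 6062 and 6114 RPKM in Foxk1 controls and at 6987, 7816 and 7418 with knockdown. It was at 6967 and 6977 RPKM in Foxk2 controls and at 5511 and 5704 with knockdown. The difference was 0.63 ± 0.0893 (adjusted p = 0.00211), and the libraries were apart in both sets, as the naming rule required. The share of reads from all mitochondrial genes rose along with this gene in the Foxk1 set but rose against it in the Foxk2 set. The share was 5.48% to 6.05% in Foxk1 controls and 6.24% to 6.61% with knockdown. It was 3.79% and 4.02% in Foxk2 controls against 4.85% and 6.72% with knockdown. It includes mt-Co3, mt-Nd3 and mt-Atp6, whose values in the Foxk2 set are uncertain, as described below. Without the filter on low values the mt-Cytb difference did not pass (adjusted p = 0.343), and under quantile normalization it was 0.99. The opposite call was lost in both and with the GC and length trend removed.

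Of the 8 named in the reverse direction, Mmp11 had the largest difference. Mmp11 (ENSMUSG00000000901.15, chr10:75923222-75936496) encodes stromelysin 3, a matrix metalloproteinase. It was at 62.4, 59.6 and 62.6 RPKM in Foxk1 controls and at 34.4, 31.8 and 43.8 with knockdown, and at 13.4 and 12.7 in Foxk2 controls and at 21.9 and 23.0 with knockdown. The effects of -0.75 and 0.76 gave a difference of -1.51 ± 0.153 (adjusted p = 0.000416), from control levels that were themselves far apart.

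Several signalling proteins went with it. P2rx3 (ENSMUSG00000027071.14, chr2:84998583-85037462), an ATP-gated ion channel, was at 13.2, 12.8 and 13.4 RPKM against 9.70, 9.60 and 8.39 with Foxk1 knockdown, and at 4.53 and 4.68 against 6.34 and 6.90 with Foxk2 knockdown. Dmpk (ENSMUSG00000030409.15, chr7:19083849-19093821), the myotonic dystrophy protein kinase, was at 12.0, 10.4 and 9.64 RPKM against 7.07, 7.42 and 8.12, and at 6.51 and 6.32 against 9.60 and 8.63. Wnk4 (ENSMUSG00000035112.17, chr11:101260567-101277409), a kinase of ion transport, was at 10.3, 9.31 and 9.38 RPKM against 7.50, 7.82 and 7.45, and at 41.8 and 40.4 against 56.0 and 52.5. None of these groups overlapped its controls, as the naming rule required. Their differences were -0.97 ± 0.0904 (adjusted p = 0.000304), -0.95 ± 0.127 (adjusted p = 0.00158) and -0.73 ± 0.0729 (adjusted p = 0.000403).

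Fam107a, a stress-responsive actin-binding protein, was scarce in the Foxk1 set (2.67, 2.88 and 3.43 RPKM in controls, 2.33, 1.78 and 2.25 with knockdown). It was abundant in the Foxk2 set, at 48.2 and 48.0 RPKM in controls and 72.9 and 71.7 with knockdown, and its difference was -1.0 ± 0.148 (adjusted p = 0.00252). Pltp, the phospholipid transfer protein of lipoproteins, was at 39.0, 38.2 and 38.5 RPKM against 31.0, 28.0 and 30.4 in the Foxk1 set and at 7.36 and 7.26 against 10.1 and 9.60 in the Foxk2 set. The Pltp difference was -0.78 ± 0.0656 (adjusted p = 0.000229), and 14.2% of its transcript also lies in transcripts of its neighbour Ctsa, so reads there could count for either. Peg10, an imprinted gene derived from a retrotransposon, had a difference of -0.75 ± 0.155 (adjusted p = 0.0113), which did not pass without Foxk2_ControlKD replicate 2 (adjusted p = 0.0524).

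Ddit4 (ENSMUSG00000020108.3, chr10:59949669-59951834) encodes REDD1, an inhibitor of mTORC1 induced by hypoxia and other stresses. It was at 25.4, 24.4 and 23.9 RPKM in Foxk1 controls and at 13.1, 14.7 and 11.8 with knockdown, and at 20.97 and 22.3 in Foxk2 controls and at 29.7 and 25.4 with knockdown. Ddit4 thus started from like levels and was low with loss of Foxk1 and high with loss of Foxk2. The effects were -0.87 and 0.34 (adjusted p = 0.0196 for the second), and the difference was -1.21 ± 0.125 (adjusted p = 0.000478). Its rise with Foxk2 knockdown did not pass without Foxk2KD replicate 1, without Foxk2_ControlKD replicate 1, with all 20 libraries in the fit or without the filter.

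In each of 26 alternative settings 11 of the 16 genes stayed opposite: Aqp1, Ubd, Gbp2, Mlkl, Dpy19l1, Mmp11, P2rx3, Dmpk, Fam107a, Pltp and Wnk4. Beyond the rule, Irf1, Inhbb, Tgfb1, Tgfbr2, Lipa, P4ha2 and Ccnd2 also did.

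Cells respond to low oxygen through HIF1, which turns on glycolysis, lactate export and collagen modification, and most tested HIF1 targets outside glycolysis differed. Of 22 members tested, 15 had the Foxk1 effect below the Foxk2 effect, against 9.26% of all genes, and 1 (Angptl4) above it, against 7.5%. The median difference of the list was -0.39, against 0.01 for all genes, and 16 members were below with the GC and length trend removed. Fewest were below, 10, without Foxk2KD replicate 1. This list was chosen with earlier results of these libraries known.

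Ddit4, given above, belongs to this list. Egln3, the prolyl hydroxylase PHD3, was at 43.3, 47.9 and 36.6 RPKM in Foxk1 controls and at 5.52, 7.07 and 5.89 with knockdown, and at 16.5 and 17.1 against 7.02 and 6.45 in the Foxk2 set. It had the largest difference of the list and fell in both sets, with effects of -2.69 and -1.26, and the difference was -1.43 ± 0.165 (adjusted p = 0.000809). Ero1l, which drives disulphide formation in the endoplasmic reticulum, went from 157, 174 and 158 RPKM to 35.0, 37.4 and 34.5 with Foxk1 knockdown and from 205 and 194 to 101 and 102 with Foxk2 knockdown, for a difference of -1.21 ± 0.0763 (adjusted p = 8.02e-05). Ak4, a mitochondrial adenylate kinase, differed by -1.20 ± 0.197 (adjusted p = 0.00414). Mif, a cytokine outside this list that the rule named for the same kind of difference, went from 399, 415 and 380 RPKM to 126, 113 and 124 and from 61.1 and 61.8 to 47.1 and 44.6, with a difference of -1.30 ± 0.0785 (adjusted p = 7.37e-05), though 63.0% of its transcript has near-identical copies elsewhere.

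Other members fell less with Foxk2 knockdown, or did not pass the test there. Bhlhe40, a repressor of clock genes, differed by -0.75 (effects -0.92 and -0.17), and Bnip3, a mitophagy receptor, by -0.64 (effects -1.09 and -0.44). P4ha1, a collagen prolyl hydroxylase, fell by 0.70 with Foxk1 knockdown and had an effect of -0.12 (adjusted p = 0.139) with Foxk2 knockdown. Opposite effects were seen for Ddit4, P4ha2, Plod2 and Kdm3a, a call that Plod2 (a lysyl hydroxylase) lost in 8 and Kdm3a (a histone demethylase) in 4 of 26 alternatives. P4ha2, the sister enzyme of P4ha1, was at 6.30, 6.30 and 6.46 RPKM against 5.38, 5.25 and 5.39 with Foxk1 knockdown and at 6.23 and 6.24 against 7.37 and 7.16 with Foxk2 knockdown, starting from the same level and parting by -0.44 ± 0.0537 (adjusted p = 0.00106).

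The upstream sequences of 3 hypoxia genes are shown because they hold the core letters of the hypoxia response element (ACGTG), and because they stand for the opposite direction (Ddit4, P4ha2) and for the larger fall with Foxk1 loss (Egln3). Each is the 250 bases before the transcription start from RefSeq, build GRCm38.p6, read 5′ to 3′ on the gene's strand with the motif in capitals. Ddit4 is chr10:59951771-59952020 on the minus strand, Egln3 chr12:54203875-54204124 on the minus strand and P4ha2 chr11:54100674-54100923 on the plus strand.
Ddit4: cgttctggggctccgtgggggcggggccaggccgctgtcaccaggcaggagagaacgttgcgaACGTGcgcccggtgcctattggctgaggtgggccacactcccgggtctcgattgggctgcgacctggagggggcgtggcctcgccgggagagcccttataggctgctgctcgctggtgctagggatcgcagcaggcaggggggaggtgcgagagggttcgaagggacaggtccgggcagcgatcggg
Egln3: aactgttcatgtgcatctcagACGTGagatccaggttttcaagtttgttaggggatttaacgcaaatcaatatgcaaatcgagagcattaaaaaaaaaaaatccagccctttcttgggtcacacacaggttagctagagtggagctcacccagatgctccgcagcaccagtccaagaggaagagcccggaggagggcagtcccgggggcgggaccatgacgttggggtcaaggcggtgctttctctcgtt
P4ha2: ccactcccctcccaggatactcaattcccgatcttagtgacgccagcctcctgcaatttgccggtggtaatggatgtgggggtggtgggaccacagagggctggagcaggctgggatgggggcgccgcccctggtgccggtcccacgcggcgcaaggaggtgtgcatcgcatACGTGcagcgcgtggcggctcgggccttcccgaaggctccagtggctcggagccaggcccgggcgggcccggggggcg

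Letters of this kind were counted, on both strands, in windows from 250 bases before to 50 after each start. ACGTG was in 14 of 24 windows of the tested hypoxia genes (58.3%, 15 of 22 genes matched by symbol) and in 11 of 26 windows of the glycolysis genes (42.3%), against 26.1% of 11218 windows of all genes tested. It was in 22 of 110 windows of the opposite genes higher with Foxk1 knockdown and in 22 of 107 windows (20.6%) of those lower. The forkhead core GTAAACA was in 4.55% and 3.74% of those windows, 5 and 4 in number, against 2.5% of windows of all genes tested. Among the 2050 windows of genes whose effect differed, 24.0% held ACGTG. Median GC of the windows was 66.7% for the hypoxia genes and 60.2% for the glycolysis genes, against 61.2% for all genes tested. The hypoxia list was made up of HIF1 targets, so its share of ACGTG is not a result of the knockdowns. A match is a run of letters, not a shown binding site.

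The glycolysis enzymes, which turn glucose into pyruvate and lactate, parted in the same direction as the hypoxia genes. Of 16 members tested, 9 had the Foxk1 effect below the Foxk2 effect and none above, against 9.26% and 7.5% of all genes. The median difference was -0.52, and 8 were below with the GC and length trend removed. The study concerns glucose use, so this list is not independent evidence of its direction. Pfkl, the liver form of phosphofructokinase, was at 73.5, 72.1 and 61.7 RPKM in Foxk1 controls and at 26.3, 25.6 and 26.5 with knockdown. In the Foxk2 set Pfkl was at 38.5 and 40.8 RPKM against 35.3 and 33.6, an effect of -0.20 that did not pass (adjusted p = 0.0594), and the difference was -1.18 ± 0.0971 (adjusted p = 0.000215).

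Ldha, which makes lactate, started level in the sets, at 224, 238 and 209 RPKM and at 224 and 240. It reached 83.3, 88.8 and 88.6 RPKM with Foxk1 knockdown and 145 and 140 with Foxk2 knockdown, a difference of -0.66 ± 0.0811 (adjusted p = 0.00106). Aldoa (aldolase), from 572, 590 and 553 RPKM to 261, 286 and 274 and from 501 and 521 to 415 and 391, differed by -0.72. Tpi1 (triose phosphate isomerase) differed by -0.67 and Gpi1 (glucose phosphate isomerase) by -0.60. Gapdh (-1.05), Pgam1 (-0.63), Pgk1 (-0.66) and Eno1 (-0.37, or -0.21 and not past the test with the GC and length trend removed) were below too, but 35.5% to 85.6% of their transcripts have near-identical copies, so their values are uncertain. Hk2, which phosphorylates glucose first, fell in both sets, and its difference of -0.09 did not pass (adjusted p = 0.418).

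Around glycolysis the pattern was mixed. Bsg, the chaperone of lactate transporters, differed by -0.50 (-0.24 under quantile normalization) and Gys1 (glycogen synthase) by -0.59, both lower with Foxk1 loss. Slc16a1, the lactate transporter MCT1, fell by 0.39 and 0.82 and so differed by 0.43, the other way. Pfkfb3, which makes the activator of phosphofructokinase, fell with Foxk2 knockdown only, by 0.51, with a difference of 0.38 (adjusted p = 0.00748). Slc2a4, the insulin-regulated glucose transporter GLUT4, fell by 0.83 and 0.91, and its difference of 0.08 did not pass (adjusted p = 0.496).

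ATF4 is the transcription factor of amino acid and endoplasmic reticulum stress. Of 23 tested ATF4 targets and serine synthesis genes, 14 had the Foxk1 effect below, and 1 (Asns, asparagine synthetase) above. The shares of all genes were 9.26% and 7.5%, and the median difference of the list was -0.29. With the GC and length trend removed 12 were below, and without Foxk2_ControlKD replicate 2 there were 7. Trib3, a pseudokinase that restrains Akt, was at 154, 147 and 154 RPKM against 47.1, 44.0 and 48.7 with Foxk1 knockdown, and at 133 and 119 against 85.7 and 80.1 with Foxk2 knockdown. The Trib3 difference was -1.10 ± 0.0843 (adjusted p = 0.000215).

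Aldh1l2, a mitochondrial folate enzyme, went from 11.1, 11.5 and 11.4 RPKM to 4.48, 4.29 and 4.47 and, in the Foxk2 set, from 9.41 and 9.48 to 7.92 and 8.19, a difference of -1.05 ± 0.055 (adjusted p = 4e-05). Ddit3, the stress factor CHOP, differed by -0.93 and Chac1, a glutathione-degrading enzyme, by -0.82. The transcript of Atf4 itself differed by -0.25, from effects of -0.38 and -0.13. Asns went the other way, down by 0.33 and 0.56, a difference of 0.24 (adjusted p = 0.00542).

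Lipid genes were mixed, beside 9.26% of all genes below and 7.5% above. Of 11 tested genes of lipolysis and the lipid droplet, 6 had the Foxk1 effect below and 1, Mgll (monoglyceride lipase), above, a call it lost in 10 of 26 alternatives. G0s2, an inhibitor of the lipase ATGL, was at 322, 338 and 321 RPKM against 126, 143 and 135 with Foxk1 knockdown and at 116 and 120 against 106 and 93.1 with Foxk2 knockdown, for a difference of -1.03 ± 0.091 (adjusted p = 0.000261). The droplet coat genes Cidec and Plin2 fell with Foxk1 knockdown only, by 0.67 and 0.53, with effects of -0.02 and -0.04 after loss of Foxk2. The Cidec difference of -0.65 was -0.32 under quantile normalization and did not pass without the filter (adjusted p = 0.0526). Plin4 and Lipe (hormone-sensitive lipase) were opposite in the main analysis, at -0.31 and 0.17 and at -0.11 and 0.21, but each lost that call in 12 of 26 alternatives.

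Dgat2, the last step of triglyceride synthesis, fell by 0.75 and 1.39, a difference of 0.63 ± 0.0715 (adjusted p = 0.000708), and Gpat4, the first step, differed by 0.37. They were the 2 of 10 triglyceride assembly genes above, with 1 below, and de novo lipogenesis had 2 of 16 above and 2 below, against 7.5% and 9.26% of all genes. Cholesterol synthesis had 10 of 24 members below and none above, but 3 below without Foxk2_ControlKD replicate 2 or Foxk2KD replicate 1, 4 without Foxk2_ControlKD replicate 1, and 6 without Foxk1_ControlKD replicate 2 or without the filter. Mvd and Dhcr7, enzymes early and late in that pathway, fell with Foxk1 knockdown by 0.73 and 0.50 and had effects of -0.13 and -0.03 with Foxk2 knockdown.

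**Figure D4:**
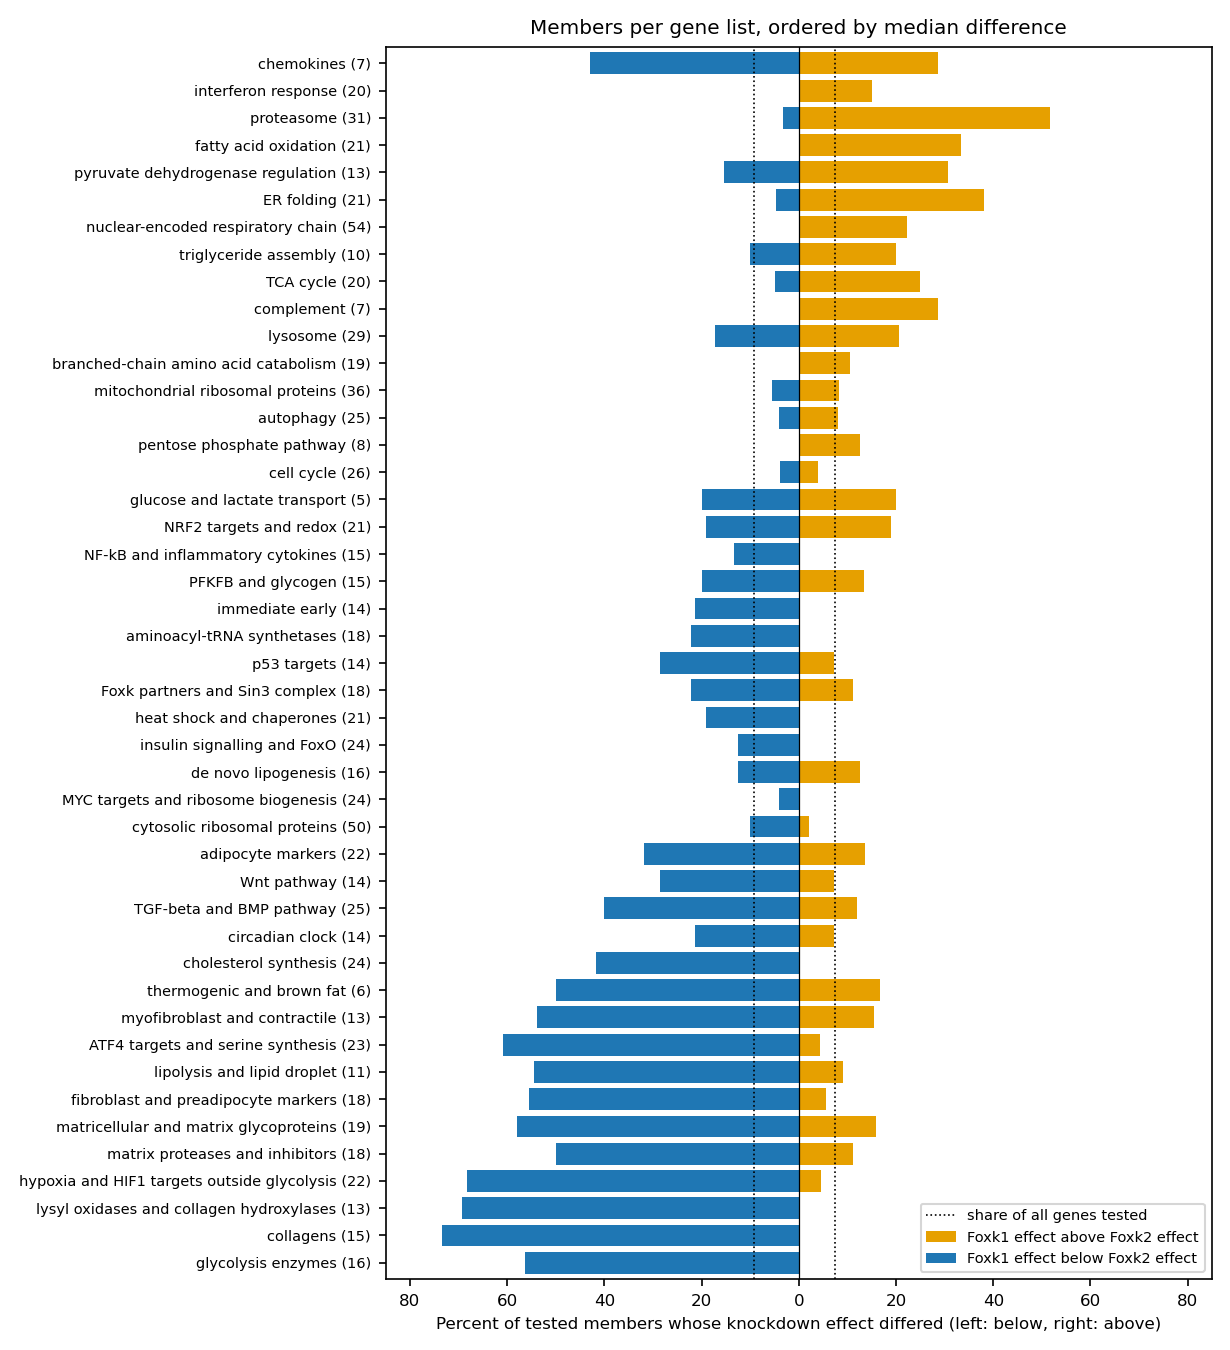
For each gene list with at least 5 tested members, the percentage of members whose Foxk1 effect was above (one side) or below (the other side) the Foxk2 effect; dotted lines mark the shares of all genes tested, 7.5% and 9.26%. Hypoxia, ATF4, collagen and glycolysis lists reach far past the line on the lower side and the proteasome on the upper side.

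The proteasome, the particle that degrades ubiquitin-tagged proteins, leaned the other way. Of 31 subunits tested, 16 had the Foxk1 effect above the Foxk2 effect, against 7.5% of all genes, and 1 (Psma1) below. The median difference was 0.21, with 13 above once the GC and length trend was removed; without Foxk2_ControlKD replicate 2 there were 5, without Foxk2KD replicate 1 there were 9. Psmd14, the deubiquitinase of the lid, was at 33.2, 36.6 and 37.8 RPKM against 32.4, 33.0 and 33.7 with Foxk1 knockdown, which overlap, and at 48.2 and 48.5 against 30.9 and 32.3 with Foxk2 knockdown. Its difference was 0.49 ± 0.0734 (adjusted p = 0.00267). Psmb2, a core subunit, had effects of 0.03 and -0.33, a difference of 0.36 (adjusted p = 0.00203).

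Mitochondrial lists leaned the same way with fewer genes, beside 7.5% of all genes above and 9.26% below. Of 54 nuclear-encoded respiratory chain subunits tested 12 were above and none below, of 21 fatty acid oxidation genes 7 were above and none below, and of 20 citric acid cycle genes 5 were above and 1 (Idh2) below. Of the last list 2 were above without Foxk2_ControlKD replicate 2 and 3 without Foxk2_ControlKD replicate 1, either Foxk2KD library or Foxk1_ControlKD replicate 2, while the voom fit called 9. Cox7b, a cytochrome oxidase subunit, was at 170, 184 and 187 RPKM against 178, 177 and 182 with Foxk1 knockdown and at 158 and 164 against 112 and 113 with Foxk2 knockdown, a difference of 0.49 ± 0.062 (adjusted p = 0.00116). Idh3a, of isocitrate dehydrogenase, fell by 0.39 and 0.79. Idh2, which makes NADPH, rose by 0.21 and 0.63. Without Foxk2_ControlKD replicate 2, 4 respiratory and no fatty acid oxidation genes were above. Respiratory genes also numbered 4 without Foxk2_ControlKD replicate 1, 6 without Foxk2KD replicate 1 and 7 without the filter, and fatty acid oxidation genes 3 without Foxk2_ControlKD replicate 1 or Foxk2KD replicate 1 and 4 without Foxk2KD replicate 2, Foxk1KD replicate 2 or Foxk1_ControlKD replicate 1.

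Of 21 endoplasmic reticulum folding genes, 8 were above, and 1 (P4hb) below; without Foxk2_ControlKD replicate 2, 4 were above and without Foxk2KD replicate 1, 5. Pdia3, a disulphide isomerase, was at 120, 121 and 127 RPKM against 169, 170 and 167 with Foxk1 knockdown and at 82.5 and 83.4 against 89.5 and 91.8 with Foxk2 knockdown, a difference of 0.33 (adjusted p = 0.00203). P4hb, another isomerase and a subunit of collagen prolyl hydroxylase, rose by 0.20 and 0.46. Among all genes tested, 7.5% were above and 9.26% below.

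Extracellular matrix genes, low in mature adipocytes and high in their precursors, differed mostly through larger increases with loss of Foxk2. The collagens had median effects of 0.19 with Foxk1 knockdown and 0.74 with Foxk2 knockdown. Of 15 collagen genes tested, 11 had the Foxk1 effect below the Foxk2 effect and none above, against 9.26% and 7.5% of all genes. The median difference was -0.49. With the GC and length trend removed 11 were still below, and the median was -0.32. Col1a1, of type I collagen, was at 315, 277 and 247 RPKM against 466, 424 and 441 with Foxk1 knockdown and at 87.5 and 86.9 against 296 and 256 with Foxk2 knockdown. Groups were apart in both sets, and Col1a1 differed by -0.98 ± 0.134 (adjusted p = 0.00167). Col3a1 differed by -0.73 and Col1a2 by -0.68. Col5a1 rose with Foxk2 knockdown only, by 0.83, with an effect of 0.07 after Foxk1 knockdown and a difference of -0.76 (adjusted p = 0.00135).

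Other matrix genes followed, beside 9.26% of all genes below and 7.5% above. Of 19 matricellular and matrix glycoprotein genes 11 were below, among them Fn1 (fibronectin, -0.93), Vcan (versican, -0.67) and Dcn (decorin, -0.66). The 3 above were Thbs1 and Thbs2, thrombospondins, with differences of 0.45 and 0.36, and Spp1 (osteopontin), which was opposite at 0.28 and -0.39, a call lost in 3 of 26 alternatives. Of 18 matrix proteases and inhibitors 9 were below and 2 (Mmp3 and Mmp13) above, the latter losing its call in 13 of 25 alternatives. Adamts1, a versican-cleaving protease, was at 105, 102 and 91.6 RPKM against 180, 173 and 167 with Foxk1 knockdown and at 48.1 and 47.8 against 173 and 196 with Foxk2 knockdown, a difference of -1.12 ± 0.0944 (adjusted p = 0.000228). Lysyl oxidases and collagen hydroxylases had 9 of 13 below and none above, and Plod1, a lysyl hydroxylase, was opposite at -0.31 and 0.23.

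Fibroblast and contractile markers moved with the matrix, beside 9.26% of all genes below and 7.5% above. The fibroblast list shares genes with the matrix lists, among them Dcn and Mmp3, so its counts are not separate from theirs. Of 18 fibroblast and preadipocyte markers tested 10 were below and 1 (Mmp3) above, and of 13 contractile markers 7 were below and 2 (Tpm1 and Zyx) above, which lost their calls in 8 and 9 of 26 alternatives. Pdgfra, the receptor that marks adipocyte precursors, was at 27.8, 27.8 and 26.7 RPKM against 60.7, 58.5 and 58.3 with Foxk1 knockdown and at 15.6 and 15.7 against 59.2 and 66.1 with Foxk2 knockdown. The Pdgfra difference was -0.87 ± 0.0663 (adjusted p = 0.000215). Thy1, another precursor marker, differed by -0.91, and Acta2 and Tagln, of smooth muscle actin filaments, by -0.84 and -0.82, though 61.8% of the Tagln transcript is shared with other genes.

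Summed over the whole list of 24 fibroblast markers, the level was 1153 to 1245 RPKM in Foxk1 controls and 2282 to 2402 with knockdown, and 563 to 574 in Foxk2 controls and 1418 to 1437 with knockdown. 1 of the 24 was at 0 in every library. The 25 adipocyte markers summed to 15875 to 16513 against 12959 to 13689 RPKM in the Foxk1 set and to 16334 to 16566 against 13788 to 14186 in the Foxk2 set. In these bulk libraries fewer cells of a type and less RNA per cell cannot be told apart, and the part of undifferentiated cells in the matrix result was not tested. The scale of the sums also differed at baseline, the fibroblast sum of Foxk2 controls being below that of Foxk1 controls in every library.

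**Figure D5:**
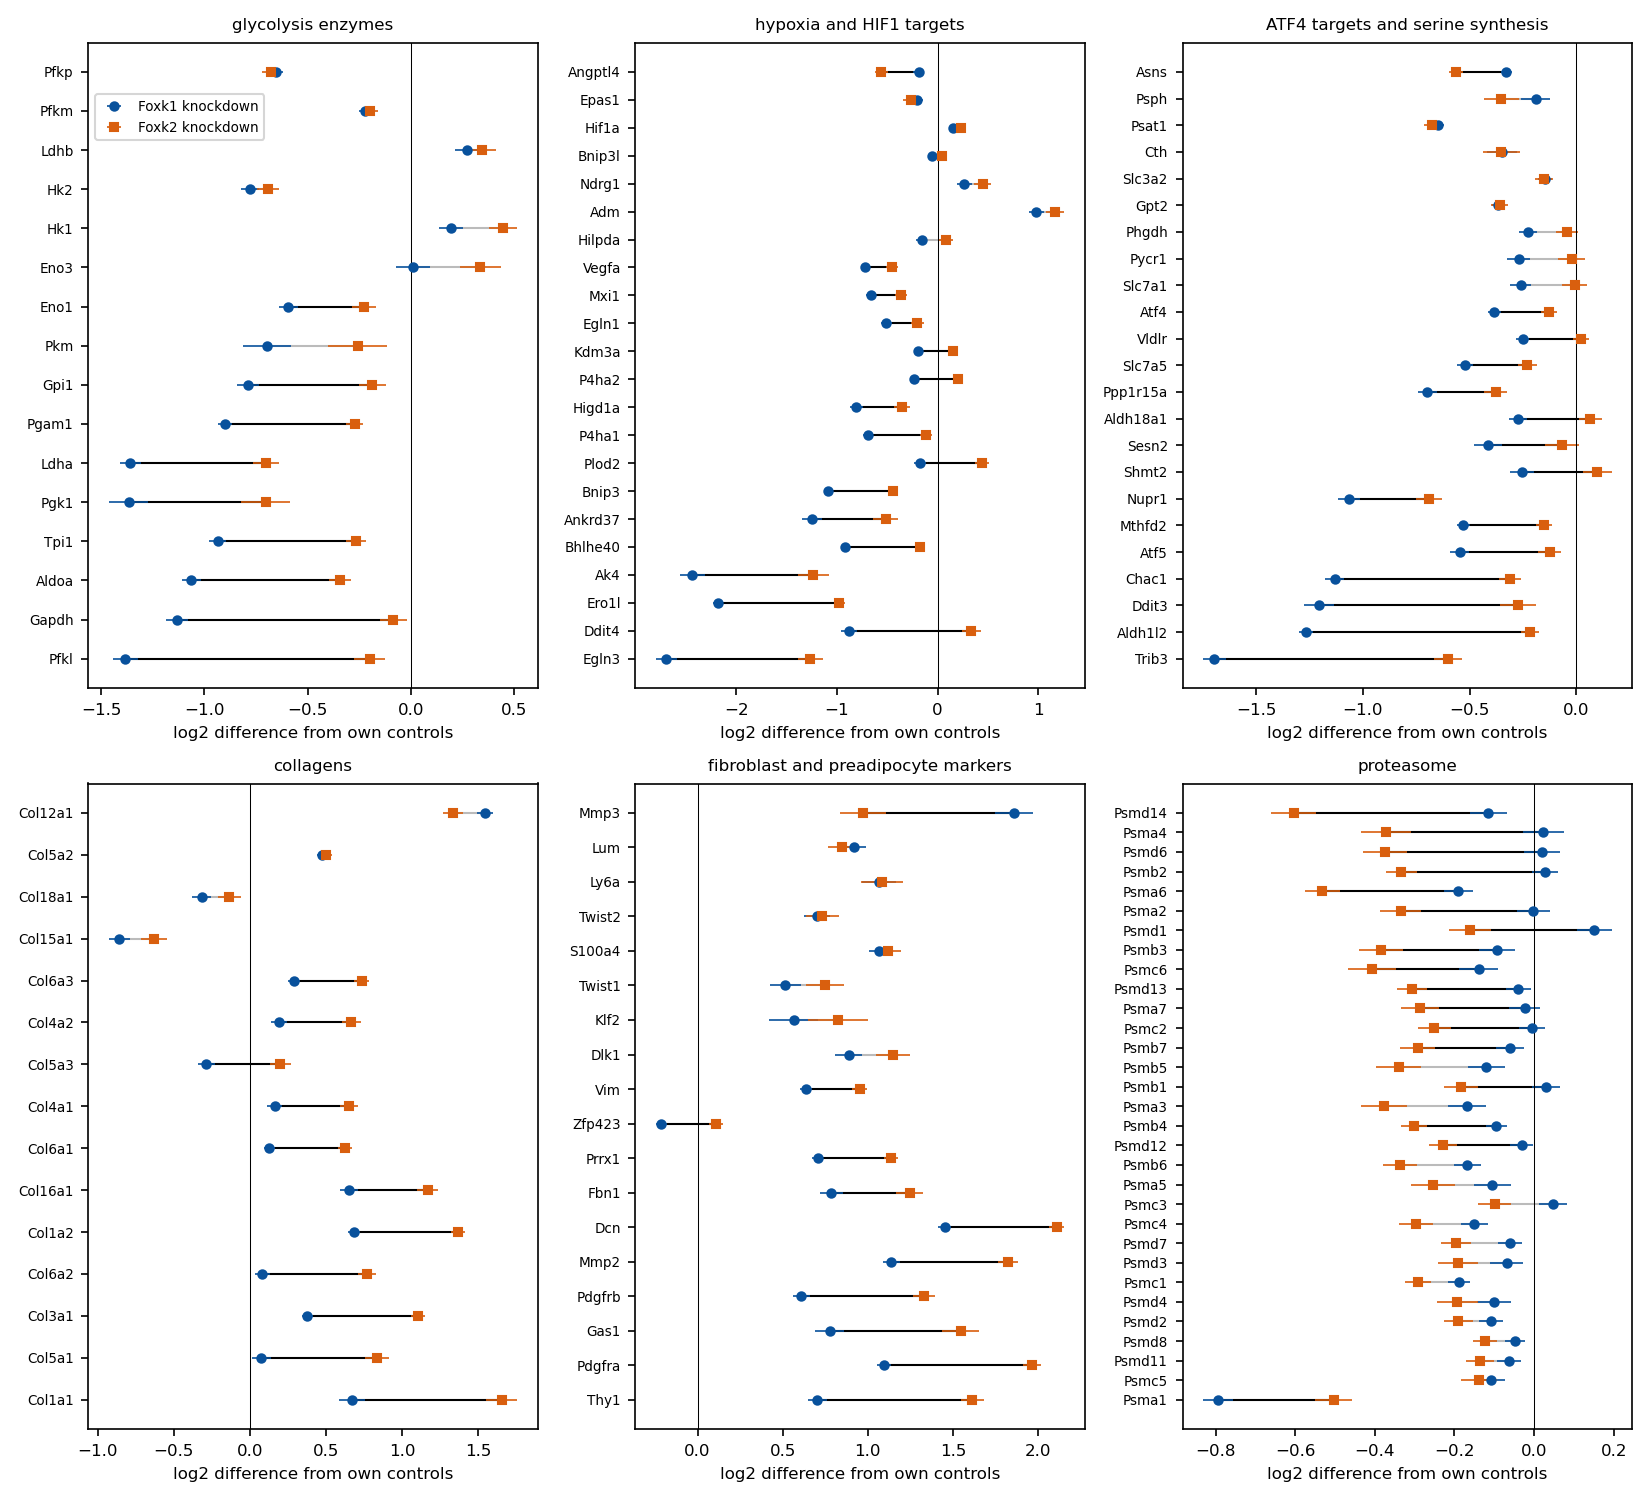
Effects of Foxk1 and Foxk2 knockdown (log2 scale, bars are SE) for the tested members of 6 lists: glycolysis, hypoxia, ATF4 targets, collagens, fibroblast markers and proteasome. A black line joins the effects of a gene whose difference passed the test and a grey line one that did not; 9 of 16 glycolysis and 15 of 22 hypoxia genes have the Foxk1 effect below the Foxk2 effect, as do 11 of 15 collagens, and 16 of 31 proteasome genes have it above.

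Where limma called none of a list on 1 side, an unadjusted p under 0.05 gave 0 above for glycolysis, cholesterol synthesis and collagen hydroxylation, 1 above for collagens, and 1 below for respiratory chain, fatty acid oxidation and interferon response. It gave 4 of 18 above for aminoacyl-tRNA synthetases and 3 of 21 for heat shock genes. The voom fit called 0 on that side in each of these lists except interferon response and heat shock, with 1 each.

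TGF-beta and activin signals, which drive fibroblast and matrix genes, held several opposite genes. Of 25 tested pathway members 10 were below and 3 above, against 9.26% and 7.5% of all genes, and 6 were below without Foxk2_ControlKD replicate 2 or Foxk2KD replicate 1. Inhbb, the activin B subunit, was at 8.28, 6.68 and 5.65 RPKM against 5.21, 4.75 and 4.72 with Foxk1 knockdown and at 0.640 and 0.678 against 1.95 and 1.97 with Foxk2 knockdown, from very unlike control levels. Its difference was -1.52 ± 0.173 (adjusted p = 0.000736). Tgfb1, the ligand, was at 8.61, 7.88 and 8.29 RPKM against 5.93, 5.94 and 5.85 and at 6.55 and 5.91 against 7.82 and 7.63, a difference of -0.74 ± 0.074 (adjusted p = 0.000387). Tgfbr2, its receptor, turned the other way, from 19.1, 17.7 and 17.2 RPKM to 23.7, 22.6 and 23.7 and from 31.2 and 31.3 to 26.9 and 27.0. Ligand and receptor thus parted in opposite senses, and the Tgfbr2 difference was 0.57 ± 0.0643 (adjusted p = 0.000708).

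The same list held Grem1, a secreted antagonist of BMPs, which had the largest positive difference of the named genes that rose in both. Grem1 was at 1.07, 0.977 and 0.966 RPKM against 6.04, 5.90 and 6.94 with Foxk1 knockdown and at 1.13 and 1.15 against 1.85 and 2.33 with Foxk2 knockdown. Control levels were alike, and the difference was 1.52 ± 0.133 (adjusted p = 0.000255). Tgfb3, a further ligand, rose by 1.12 and 0.68 and differed by 0.44 (adjusted p = 0.0111). Pmepa1, a TGF-beta-induced feedback inhibitor chosen after its values were seen, rose with Foxk2 knockdown only, with effects of 0.07 and 1.12.

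Of 22 adipocyte markers tested, 7 were below and 3 (Cfd, Adig and Pck1) above, against 9.26% and 7.5% of all genes. Without Foxk2_ControlKD replicate 2 none was above by limma and without the filter 1, and over 26 alternatives Pck1 lost its call in 7, Cfd in 3 and Adig in 1. Adrb3, the beta3-adrenergic receptor that starts lipolysis in fat cells, was at 57.5, 51.1 and 48.6 RPKM against 45.6, 42.8 and 43.8 with Foxk1 knockdown and at 5.03 and 4.49 against 9.82 and 8.95 with Foxk2 knockdown. The Adrb3 difference was -1.15 ± 0.106 (adjusted p = 0.000296). Lcn2, an iron-binding secreted protein, was at 1.28, 1.60 and 1.60 RPKM against 1.17, 1.09 and 1.32 and at 13.5 and 13.9 against 31.4 and 28.6, a difference of -1.34 ± 0.122 (adjusted p = 0.000287); its fall with Foxk1 knockdown did not pass in several alternatives. Cebpd, an early adipogenic factor, rose with Foxk2 knockdown only, by 1.04.

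Of 29 lysosomal genes 6 were above and 5 below, against 7.5% and 9.26% of all genes. Without either Foxk2 control library 4 were above and 2 below, without Foxk2KD replicate 1 there were 4 and 3, with the trend removed 9 and 4, and with all 20 libraries in the fit 6 and 3. Lipa, the lysosomal acid lipase, was at 42.7, 44.7 and 44.4 RPKM against 51.4, 52.998 and 53.4 with Foxk1 knockdown and at 53.9 and 56.5 against 43.4 and 44.4 with Foxk2 knockdown, a difference of 0.58 ± 0.0509 (adjusted p = 0.000255). Neu1, a sialidase, was opposite the other way at -0.19 and 0.15, a call lost in 14 of 26 alternatives. The clock genes Cry2, Dbp and Per2 were opposite as well, lower with Foxk1 loss and higher with Foxk2 loss, with differences of -0.31, -0.59 and -0.60, and each lost that call once the GC and length trend was removed.

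The remaining genes named by rule passed for 1 factor only or moved together by unequal amounts. Ccl2, the monocyte-attracting chemokine, was at 9.56, 11.7 and 10.48 RPKM against 27.4, 27.0 and 29.8 with Foxk1 knockdown and at 3.48 and 3.38 against 3.98 and 3.87 with Foxk2 knockdown, where its effect of 0.17 did not pass (adjusted p = 0.127). The Ccl2 difference was 1.20 ± 0.107 (adjusted p = 0.000267). Tnfrsf21, the death receptor 6, had effects of 1.07 and -0.15, and Arxes1, an adipocyte gene of which 45.9% is shared with Arxes2, of 0.99 and -0.18. Mlana and Cox6a2, a melanosome protein and the muscle form of a cytochrome oxidase subunit, fell with Foxk1 knockdown only, by 1.5 and 1.46; the Mlana difference lost its call in 7 of 26 alternatives, with an adjusted p of up to 0.0741, among them each Foxk2 library left out. Between 11.6% and 19.8% of the transcripts of Bnip3, Aldh1l2, Adrb3, Ak4, Cebpd, Spp1 and Tgfb3, and 29.5% of that of Dbp, also lie in transcripts of other genes.

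Hmox1, the haem-degrading enzyme induced by oxidative stress, fell with Foxk1 knockdown by 1.03, from 174, 182 and 169 RPKM to 84.4, 84.5 and 87.2. In the Foxk2 set it was at 112 and 105 RPKM against 101 and 98.2, and the difference was -0.91 ± 0.0593 (adjusted p = 9.81e-05). Of the acute-phase pair Orm1 and Orm2, Orm2 rose in both, by 1.65 and 0.71, while Orm1 fell with Foxk2 knockdown only, by 0.69. The transcription factors Glis2 and Id4 rose more with Foxk2 knockdown, by 0.39 against 1.52 and by 0.77 against 1.87. The Id4 difference was -1.10 (adjusted p = 0.0297), with an adjusted p of up to 0.116 in alternatives.

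Larger falls with Foxk2 loss were seen for Apoc1 and Slc36a2. Apoc1, a lipoprotein component, was at 326, 349 and 369 RPKM against 163, 184 and 178 with Foxk1 knockdown and at 186 and 181 against 47.4 and 46.3 with Foxk2 knockdown, a difference of 0.96 ± 0.0869 (adjusted p = 0.000277). Slc36a2, an amino acid transporter that marks brown fat, fell by 0.81 and 2.01. Hist1h2bk and Fibin fell with Foxk2 knockdown by 1.81 and 1.12, and their Foxk1 effects did not pass. In the Foxk1 set Hist1h2bk was at 3.03, 3.55 and 2.42 RPKM in controls and at 1.48, 3.01 and 2.33 with knockdown. The difference lost its call in 3 of 26 alternatives for Hist1h2bk and in 1 of 26 for Fibin.

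For Foxk2 knockdown only, the rule also named mt-Co3, mt-Nd3 and mt-Atp6, which are uncertain. mt-Co3 was at 533 and 74.8 RPKM in the Foxk2 controls and at 3437 and 8151 with knockdown, so libraries of a group differed several-fold, and the difference was -5.15 ± 1.05. Between 99.1% and 99.9% of these transcripts have a near-identical nuclear copy. Cyp2e1, a drug-metabolising cytochrome P450, and Ptgds, a prostaglandin synthase, both chosen after their values were seen, rose with Foxk2 knockdown only. Cyp2e1 was at 32.7 and 30.7 RPKM against 77.9 and 84.7 in the Foxk2 set and at 2.30, 1.97 and 3.04 against 2.41, 2.46 and 1.71 in the Foxk1 set, a difference of -1.46 ± 0.223 (adjusted p = 0.00286).

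Libraries with Foxk2 overexpression, which have their own controls and came with Foxk2 at 19.93 and 19.98 RPKM against 13.4 and 13.3, took no part in choosing these genes. Foxk1 fell in the same libraries, from 11.6 and 11.6 RPKM to 6.98 and 7.30, an effect of -0.66 (adjusted p = 5.28e-07), so they differ from their controls in both factors. Of the 112 genes that rose with Foxk1 knockdown and fell with Foxk2 knockdown, 45 (40.2%) were higher with Foxk2 overexpression and 22 (19.6%) lower, against 28.0% and 28.1% of all genes tested. Of the 96 in the reverse direction, 15 (15.6%) were higher and 51 (53.1%) lower. Median effects of overexpression were 0.10 and -0.20 in these groups. Across 12141 genes the overexpression effect had a Spearman correlation of -0.325 with exonic GC, which also separates these groups, and its part in this result was not tested.

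Of the 16 named opposite genes, 5 moved against their Foxk2 knockdown direction in the overexpression libraries, 7 moved in the same direction and 4 did not pass. Dpy19l1 rose by 0.70, Bbip1 by 0.49 and Rbm43 by 0.30, and Wnk4 and Fam107a fell by 0.45 and 0.42, against knockdown. Aqp1, Ubd, Gbp2 and Mlkl fell, as with Foxk2 knockdown, by 0.67, 0.70, 0.45 and 0.41. Ddit4, Peg10 and Pltp rose, as with Foxk2 knockdown, by 1.5, 0.41 and 0.40. Mmp11, P2rx3, Dmpk and mt-Cytb did not pass. As the 16 are opposite genes, the 7 moved against their Foxk1 knockdown direction and the 5 along with it. All these values come from libraries in which Foxk1 also fell, and the part of that fall was not tested. The libraries labelled Foxk1 overexpression are not read here, because Foxk1 was at 6.16, 6.06 and 6.08 RPKM in them and at 7.11, 7.48 and 8.04 in their controls.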

How the data were processed

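RNA was sequenced from 3T3-L1 adipocytes with knockdown or overexpression of Foxk1 or Foxk2. Per the submitters' processing notes, the authors used HISAT2 2.1.0, Picard 1.141, featureCounts of Subread 1.5.1, edgeR and the mm10 build; strand use is not given in the sources used here. The authors deposited 1 table of RPKM for 48440 genes, of which 48058 identifiers matched a GENCODE M21 gene without the version. Whole reads were recovered from the deposited RPKM steps and exon lengths, which gave the library sizes. They were within 0.1 read for 100.0% of values above 0 among the 40606 identifiers that matched with their version. For 4184 genes without whole reads by exon length, the shortest length that made all values whole was used. A further 732 genes had too few values above 0 for this.

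RPKM values entered limma 3.58.1 (R 4.3.3) as log2(RPKM + 0.5), in 4 groups of 10 libraries with an intensity trend, for genes at 0.5 RPKM or more in at least 2 libraries of each set. The contrast was the Foxk1 effect minus the Foxk2 effect, Benjamini-Hochberg adjusted over 12166 genes, with 6 residual and 3.23 prior degrees of freedom. The fit was tested on simulated data with known differences, put into a small part of the genes in the Foxk1 knockdown libraries only. The simulation held no Foxk2 effect and no GC trend, so its rates need not hold for the real libraries. In the simulated data 4.04% of calls were false on average. The fit recovered there on average 18.8% of 1.25-fold, 60.8% of 1.5-fold, 84% of 2-fold and 92.8% of 4-fold differences. A small difference that did not pass may therefore have been missed. Overexpression effects came from a fit of all 20 libraries.

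Genes named by rule were the targets, the 8 opposite genes in each direction with the largest smaller effect, 3 of each other kind and up to 4 per list. Opposite genes named this way also needed knockdown and control libraries apart in both sets. Genes named as passing for 1 factor only needed them apart for that factor. Only the opposite genes and the other kinds had to reach a mean of 2 RPKM in the higher group of each set. Genes named from lists or after their values were seen had no such limit, and some were low. Mmp13, for example, was at 0.20 to 0.73 RPKM in the Foxk2 set. Others, among them Cyp2e1, Pmepa1, Ptgds, Ldha, Aldoa, Gpi1, Pgk1, Eno1, P4ha1, Plod2, Kdm3a, Ak4, Atf4, Asns, Col1a1, Col5a1, Myl9, Lipe, Tgfb3, Neu1, Hk2 and Slc2a4, were chosen after their values were seen. The comparison and the 47 gene lists were chosen with earlier results of these data known. Near-identical copies were found with BLAST+ 2.17.0 (99% identity over at least 100 bases). Promoter sequences are from RefSeq (GRCm38.p6). Alternatives varied the filter, pseudocount, scaling, libraries, weights, replicate block, a count model (voom) on recovered reads and a GC and length trend. Python 3.11.15, pandas 2.3.3 and matplotlib 3.10.9 were used for tables and figures.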

Additional observations from a re-analysis of the deposited data

Results flagged for a closer look

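The values here stand out because the effect of a knockdown differed between the factors by a test of the difference itself, with its value on the log2 scale. In all, 2039 genes did so and 208 with opposite directions. The knocked-down genes were among them, Foxk1 at -1.53 and Foxk2 at 1.64.

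Among named opposite genes, those higher with Foxk1 loss were Aqp1 (1.27), Ubd (1.18), Gbp2 (1.22), Mlkl (0.90), Rbm43 (0.73), Bbip1 (0.68), Dpy19l1 (0.67) and mt-Cytb (0.63). Those lower with Foxk1 loss were Mmp11 (-1.51), P2rx3 (-0.97), Dmpk (-0.95), Fam107a (-1.0), Pltp (-0.78), Peg10 (-0.75), Ddit4 (-1.21) and Wnk4 (-0.73).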

How the results depend on the processing

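Of 233 genes, named by rule, by list or after their values were seen, none reversed in 26 alternatives. The difference kept its call in every alternative for 154, was lost for 23 only when a library was left out and for 56 in another setting. Genes whose effect differed numbered 1786 with no filter, 2738 by voom on recovered reads and 1906 with the GC and length trend removed. Leaving out 1 library gave 931 to 2200 genes, 105 to 208 of them opposite, with the Foxk1 knockdown effect difference (of the Foxk1 transcript) at -1.59 to -1.47 and the Foxk2 knockdown effect difference (of the Foxk2 transcript) at 1.59 to 1.69. The lowest counts came without Foxk2_ControlKD replicate 2 (931 and 105), replicate 1 (1154 and 117) and Foxk2KD replicate 1 (1152 and 118), where a group is left with 1 library assumed to vary like the others.

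Same-numbered libraries did not deviate together, with correlations of 0.032, 0.064 and -0.001 in the Foxk1 set and -0.158 in the Foxk2 set. With 2 libraries per group the Foxk2 set gives a single value. These values cannot decide whether same-numbered libraries were handled together, and the labels do not say. With a replicate block 1657 genes were called, 173 of them opposite, with Foxk1 at -1.53 and Foxk2 at 1.64. With the numbers of the Foxk2 set crossed, added after seeing the data, 1634 and 175 were called. A filter of 20 reads, also added then, gave 2184.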

Other observations

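In the lists given here the share of members called was 4.17% to 12.5%, against 16.8% of all genes tested. Of 50 cytosolic ribosomal protein genes, which build the translation machinery, 1 had the Foxk1 effect above the Foxk2 effect and 5 below, with a median difference of -0.09. Of 26 cell cycle genes 1 was above and 1 below, and of 24 MYC and ribosome biogenesis genes none was above and 1 below. Insulin signalling and FoxO genes had 3 of 24 below and none above. At an unadjusted p under 0.05 the limma fit had 1 above and 6 below in each of the MYC and insulin lists. In these lists voom called 0 and 1 above, and 4 below in each. Of 25 autophagy genes, a process that Foxk factors are known to restrain, 2 were above and 1 below, with a median difference of 0.04. For comparison, 7.5% of all genes tested were above and 9.26% below.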
